A study of Mus musculus with 6 samples.

Results

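Interferon-stimulated genes are the genes that cells turn on when interferon, a signal of viral infection, binds its receptor. A list of 41 of them was followed through an ATAC-seq peak table of mouse bone marrow. A peak belonged to the set where the table named a listed gene at the nearest transcription start site, which gave 232 of 109859 peaks, at 40 of the 41 genes. Of these, 68 lay within 1 kb of the start site and are called promoter peaks, and 164 lay further away and are called distal peaks. In ATAC-seq the Tn5 transposase cuts open DNA and tags it for sequencing, so the reads in a peak measure how accessible that stretch of chromatin is. The cells were lineage-negative bone marrow cells, which remain after mature blood cells are taken away and which the labels describe as hematopoietic stem and progenitor cells. They came from 3 wildtype mice and from 3 mice with a conditional knockout of Mel18 in the blood system. Mel18, the product of Pcgf2, is a Polycomb group protein and part of a complex that keeps genes silent. The study asked whether its loss alters accessibility. Strain, age, sex, any treatment that induced the deletion and the Cre driver are not given here.

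Type I interferons bind the receptor pair Ifnar1 and Ifnar2, whose kinases Jak1 and Tyk2 phosphorylate transcription factors of the STAT family. Stat2 and Irf9 are parts of the complex ISGF3 that then forms, which binds a short DNA element, the interferon-stimulated response element (ISRE), in the promoters of its target genes. Type II interferon acts mainly through another element, the gamma-activated site (GAS). Many target genes keep a low basal level without infection, and interferon is known to drive hematopoietic stem cells out of quiescence.

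The response element itself is visible in the promoters. Of the 41 genes, 34 were found in the RefSeq promoter table (build GRCm38.p6, which has the coordinates of mm10), with 44 start sites. The 250 bases upstream of each start were searched on both strands for the core of the ISRE, which is GAAA, any 2 bases (NN) and GAAA again. It occurred in 13 of these 44 promoters (29.55%) and in 2.977% of all 32851 promoters of that table. The GAS core TTCNNNGAA, where N is any base, occurred in 15.91% against 7.02% of all. The Sp1 box GGGCGG, an element common in promoters, occurred in 38.64% against 32.74%, and the ETS core GGAAGT in 27.27% against 19.74%. These shares describe letters and not bound factors, and the elements can overlap. A peak reached into 34 of the 44 upstream windows (77.27%), against 39.72% of all promoters. Among promoters with the ISRE core it did so in 10 of 13 (76.92%), against 34.15% of all promoters that hold the core.

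An open promoter was therefore not found at every gene with the element. Isg15 encodes a ubiquitin-like protein that is attached to other proteins during the response, and Ifit3 encodes a partner of the RNA-binding Ifit proteins. Both hold the ISRE core more than once close to the start, and neither had a peak in the upstream window. The table assigned no peak at all to Isg15, whose nearest peak lay 1675 bp from its start, and the single peak assigned to Ifit3 lay 13264 bp upstream. Their sequences, shown because the element was there without a peak, run 5′ to 3′ on the gene's strand up to the base before the start, with the core on either strand in capitals. Isg15 lies on the minus strand at chr4:156200819-156201068, and 3 overlapping matches ended 56 bp from its start. Ifit3 lies on the plus strand at chr19:34583279-34583528, and the closer of its 2 matches lay 112 bp from the start.
Isg15: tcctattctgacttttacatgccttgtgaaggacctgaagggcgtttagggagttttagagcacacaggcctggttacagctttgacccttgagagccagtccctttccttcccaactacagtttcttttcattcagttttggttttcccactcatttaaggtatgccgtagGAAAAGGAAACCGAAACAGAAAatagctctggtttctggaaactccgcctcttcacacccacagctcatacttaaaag
Ifit3: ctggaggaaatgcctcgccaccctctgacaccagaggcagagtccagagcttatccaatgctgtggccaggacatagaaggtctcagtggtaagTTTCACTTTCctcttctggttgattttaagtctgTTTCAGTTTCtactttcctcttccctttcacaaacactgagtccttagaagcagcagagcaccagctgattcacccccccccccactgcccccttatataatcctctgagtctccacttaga

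The next set is shown because a peak covered the element. Stat2, at chr10:128270248-128270497 on the plus strand, had the most reads of any promoter in the set, and its match lay 212 bp from the start. Rsad2, at chr12:26456453-26456702 on the minus strand, encodes viperin, an enzyme that makes a chain-terminating nucleotide, and its match lay 110 bp away. Bst2, at chr8:71537473-71537722 on the minus strand, encodes tetherin, which holds budding virus at the cell surface. The nearer of its 2 overlapping matches lay 114 bp away. The promoter table held no entry for Mx1.
Stat2: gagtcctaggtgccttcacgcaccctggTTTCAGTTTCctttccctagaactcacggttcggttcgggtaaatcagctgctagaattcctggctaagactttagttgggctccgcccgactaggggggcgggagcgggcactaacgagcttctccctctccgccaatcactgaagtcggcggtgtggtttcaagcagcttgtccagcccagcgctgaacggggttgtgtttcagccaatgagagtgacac
Rsad2: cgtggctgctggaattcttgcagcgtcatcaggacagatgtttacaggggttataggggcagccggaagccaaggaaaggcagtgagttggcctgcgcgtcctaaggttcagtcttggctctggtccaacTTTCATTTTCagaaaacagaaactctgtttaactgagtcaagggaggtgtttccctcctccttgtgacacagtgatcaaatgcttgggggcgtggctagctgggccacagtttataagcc
Bst2: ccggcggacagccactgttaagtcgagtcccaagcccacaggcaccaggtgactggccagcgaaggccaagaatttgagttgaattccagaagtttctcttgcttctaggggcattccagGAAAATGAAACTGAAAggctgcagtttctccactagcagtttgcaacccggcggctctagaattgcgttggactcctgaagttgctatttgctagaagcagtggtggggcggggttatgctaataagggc

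Peak reads per library ran from 12000808 to 13769335 in wildtype and from 14487908 to 16709921 in knockout mice, and each knockout library held more than each wildtype library (p = 0.1 by an exact two-sided permutation test, which cannot go lower with 3 against 3). The median peak of the set held 46 to 69.5 reads, depending on the library. Libraries carry the numbers of the table, and these are not tied to a mouse. Wildtype library 3 differed from the others, with a mean Spearman correlation to the other wildtype libraries of 0.859, against 0.894 to 0.949 for the own-group means of the rest. Results that rest on it are given with and without it. The peak closest to Pcgf2 lay 16 bp beyond the gene and was a promoter peak of the neighbouring gene Psmb3. It held 17.5, 19.2 and 13.3 CPM (reads scaled to a common library total) in wildtype and 17.04, 19.8 and 16.3 in knockout libraries. The deleted exons are not given, so this peak does not check the deletion.

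Mx1, an interferon-induced GTPase that blocks virus replication, had an accessible promoter in every library, and it was more accessible in each knockout library than in any wildtype library. Many laboratory strains carry a defective copy of this gene, and the strain is not given. The peak over its start site, at chr16:97462853-97463285 in mm10, held 154, 143 and 165 reads in wildtype libraries 1 to 3 and 478, 476 and 496 in knockout libraries 1 to 3. In CPM these were 13.6, 12.2 and 12.3 against 27.7, 31.4 and 31.9. Knockout values were 2.38 times the wildtype values, and the spread within each genotype was small beside the gap. In bulk cells, a different mix of cell types and a different accessibility per cell cannot be told apart. The second Mx1 promoter peak lay 26 bp further upstream, at chr16:97463312-97463432. It held 7, 3 and 6 reads in wildtype and 35, 45 and 60 in knockout libraries, or 0.441 ± 0.182 CPM against 2.95 ± 0.915 CPM (SD, n = 3 each).

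The log2 fold change, knockout over wildtype, was 1.25 ± 0.151 at the start site and 2.72 ± 0.441 at the second peak (SE). Neither passed an adjusted p of 0.05 in edgeR's quasi-likelihood test with Benjamini-Hochberg adjustment over all peaks, the values being 0.0506 and 0.0606. No peak of the set passed (0 of 232), and 0% of all peaks did. At an unadjusted p under 0.05 the same test gave 6 higher and 7 lower peaks of the set, against 3.1% and 5.97% of all peaks. DESeq2's Wald test also called 0 of the 232, though it gave only 9 of them an adjusted p, and limma-voom called 1, the start-site peak of Mx1. The start-site peak had the fifth smallest p of all peaks, and the second had the highest log2 fold change among peaks that were higher in knockout libraries. The call at the start site depends on the fit: the adjusted p was 0.0212 with limma-voom, 0.0244 with DESeq2 size factors, 0.0853 with library size alone and 0.105 with a trended normalization. Before adjustment, edgeR's p there was 2.3e-06 in the main fit and 9.6e-07 with trended normalization. With 1 library left out the adjusted p was 3.9e-05 without wildtype library 3, 0.0377 without wildtype library 2 and 0.230 without wildtype library 1. Without knockout library 1, 2 or 3 it was 0.298, 0.517 and 0.304. In the authors' deposited table the pair had adjusted p-values of 4.3e-05 and 0.000262, 2 of the 3 peaks under 0.05 there, and the next peak of the set had 0.361.

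Ratios within a library, which need no scaling between libraries, gave the same order. The Mx1 pair together took 1.55%, 1.36% and 1.26% of the reads in the set's promoter peaks in wildtype libraries and 3.46%, 3.92% and 4.04% in knockout libraries. Per 100 reads in the distal Mx1 peaks, the start-site peak held 38.5, 39.4 and 33.3 reads in wildtype libraries and 80.3, 93.0 and 83.5 in knockout libraries. The second peak held 3.43 ± 1.24 reads per 100 reads of the start-site peak in wildtype and 9.62 ± 2.39 in knockout libraries (SD), a larger relative difference than at the start site. Each of these 3 ratios was higher in every knockout library than in every wildtype library (p = 0.1 each, exact two-sided permutation tests at their lowest possible p). The ratios reuse the Mx1 reads given above, whose difference was known before the tests were chosen. They are therefore no separate evidence.

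**Figure D1:**
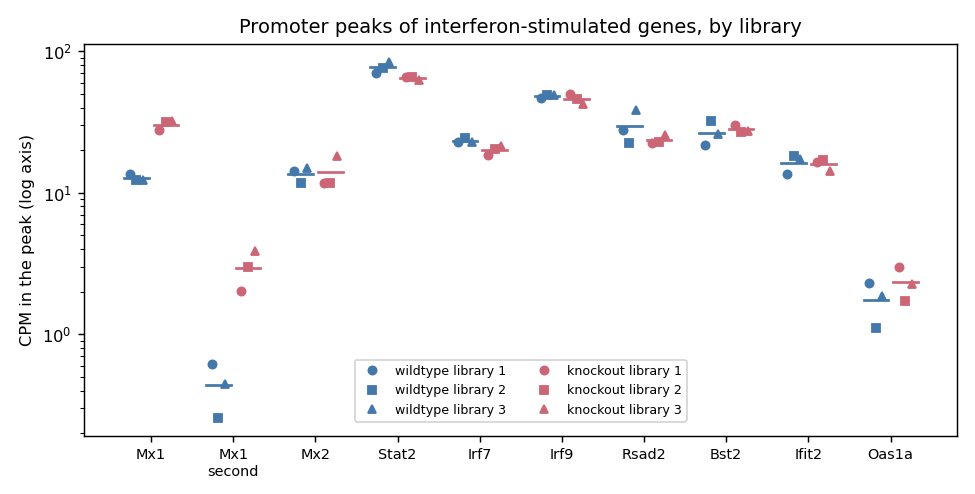
CPM in each library (log axis) for the start-site and the second peak of Mx1 and for the promoter peak with the most reads at 8 other genes; horizontal lines are means over the 3 libraries of a genotype. The genotypes are separate at both Mx1 peaks, with 12.2 to 13.6 CPM against 27.7 to 31.9 CPM at the start site. At Stat2 and Irf7 every knockout library lies slightly below every wildtype library, and at the remaining genes the genotypes overlap.

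Further from the Mx1 start the peaks lay on both sides of 0, without a common difference. The 9 distal Mx1 peaks summed to 34.5 ± 3.07 CPM in wildtype and 35.5 ± 2.38 CPM in knockout libraries (SD; p = 0.7 by an exact two-sided permutation test). The next peak upstream, 3842 bp from the start, held 25, 37 and 42 reads against 53, 40 and 57, with a log2 fold change of 0.14 ± 0.288 (adjusted p = 0.937). The next downstream, 18877 bp past the start, had a log2 fold change of 0.00 ± 0.22. A peak 9778 bp upstream, in an intron of the neighbouring gene Fam3b, was higher in each knockout library, with 33, 44 and 38 reads against 76, 78 and 79, and a log2 fold change of 0.62 ± 0.254 (adjusted p = 0.478). Mx2, the related GTPase gene on the far side of Fam3b, had its largest promoter peak 959 bp upstream of its start. That peak held 14.2, 11.6 and 14.8 CPM in wildtype libraries, against 11.8, 11.8 and 18.3, and the genotypes overlapped. The 3 Mx2 promoter peaks had log2 fold changes of 0.04, 0.17 and -0.11 (adjusted p = 0.978, 0.885 and 0.962). As background, the Mx1 promoter also drives a Cre transgene widely used for inducible deletion in blood cells. Reads from such a copy and from the gene itself would fall in the same peak, and since the driver is not given, the 2 sources cannot be told apart.

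**Figure D2:**
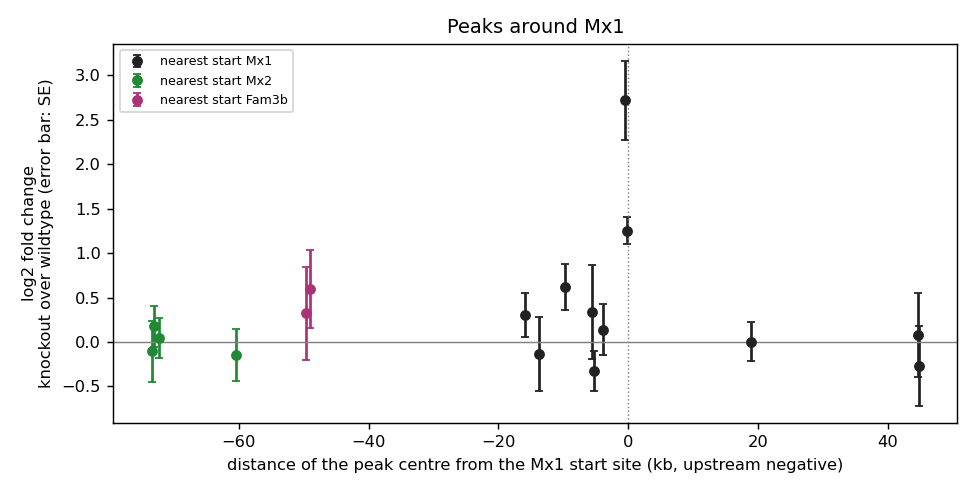
Log2 fold change, knockout over wildtype (error bars SE), of the peaks around Mx1 against the distance of each peak's centre from the Mx1 start site in kb (upstream negative), coloured by the nearest start site. Only the pair at the start, with 1.25 and 2.72, stands above 1 in this window.

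The promoters of the other interferon-stimulated genes lay near their wildtype level, with more of them below it than above. Over the 66 promoter peaks other than the Mx1 pair, the median log2 fold change was -0.09, beside -0.15 over all promoter peaks, and the range was -0.67 to 0.71. Of these, 24 lay above 0 and 42 below. With Mx1, 2 of 68 promoter peaks were higher at an unadjusted p under 0.05 (1.11% of all promoter peaks) and 5 were lower (19.1% of all). In 3 peaks each knockout library was above each wildtype library (3.63% of all promoter peaks), and in 9 each was below (23.6% of all). Both lower shares in the set, 7.35% and 13.24%, were below those of all promoters. The set's promoter peaks also held fewer reads, with a median of 6.23 CPM against 9.22 over all promoter peaks.

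The sign of the median shift depends on the scaling. With library size alone the median of the 66 peaks was 0.026, and that of all promoter peaks was -0.026; all peaks together moved from 0.02 to 0.14. After trended normalization, in which a smooth trend of the difference against read level is taken out, the median was -0.09, against -0.07 over all promoter peaks. At an unadjusted p under 0.05, edgeR's test then gave 3 higher and 0 lower of the 68 promoter peaks with Mx1. Of all 21892 promoter peaks, 399 were higher and 867 lower. By gene, taking the promoter peak with the most reads at each of the 32 genes other than Mx1, the median was -0.16, against -0.20 over the same choice at 13009 genes, and after trended normalization both were -0.06. These 32 peaks ranged from -0.40 at Samhd1 to 0.41 at Oas1a. In 8 of them (25%) every knockout library was below every wildtype library, against 34.91% over all genes, and in 0 was every knockout library above (2.214% over all genes).

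**Figure D3:**
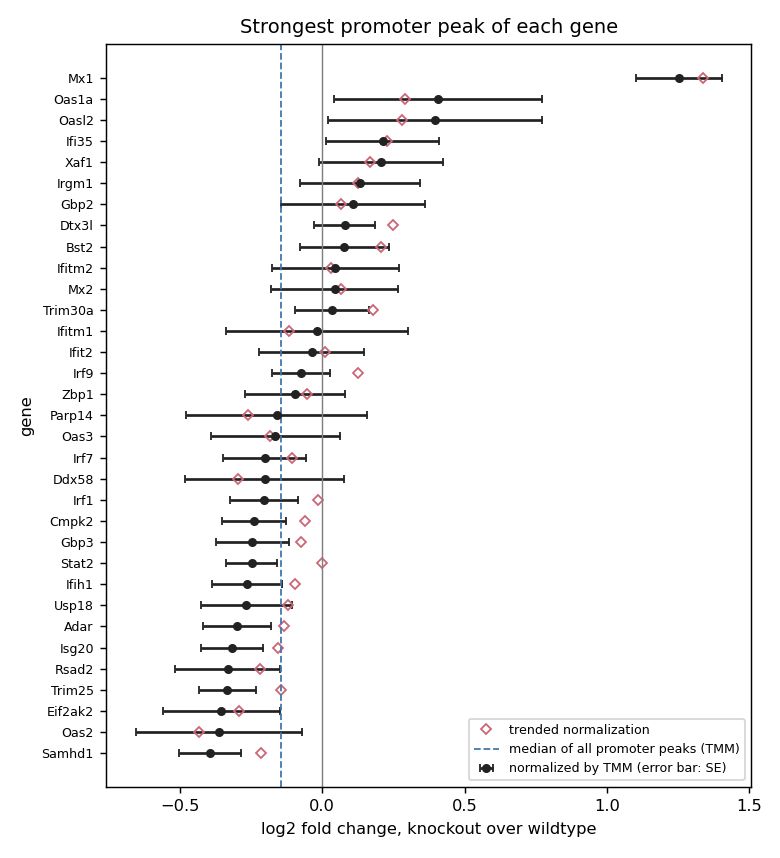
Log2 fold change, knockout over wildtype, of the promoter peak with the most reads at each of 33 genes (points with SE, TMM scaling) and after trended normalization (diamonds); the dashed line is the median of all promoter peaks. Mx1 lies at 1.25 and the other 32 between -0.40 and 0.41, around that line.

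Basal openness differed widely between the genes. Per 100 bp of peak, Stat2 held the most reads, 13.98 ± 1.28 CPM in wildtype and 11.77 ± 0.374 in knockout libraries (SD, n = 3 each), above 89.4% of all promoter peaks. Irf1, Dtx3l, Samhd1 and Adar followed, at 8.87 to 11.5 CPM per 100 bp over all libraries. Mx1 held 2.94 ± 0.184 in wildtype, below the median of all promoter peaks of 3.64, and 7.01 ± 0.53 in knockout libraries, above it. Among the 33 genes with a promoter peak, the least open were Oas1a at 1.05, Oasl2 at 1.26, and Ddx58, Ifitm1, Oas2, Parp14 and Xaf1, at 1.54 to 1.93 CPM per 100 bp. Oas1a sits in a cluster of near-identical copies, as do several Ifit and Gbp genes, and how reads that match several copies were counted is not given, so these low levels are uncertain.

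The signal transducers and transcription factors, which carry the response into the nucleus, had 7 promoter peaks at 4 genes, with a median log2 fold change of -0.21 and no peak above 0. Of all 21892 promoter peaks, 15290 lay below 0. With trended normalization the group median was -0.11, and Irf9 lay above 0, at 0.13. Stat2, a subunit of ISGF3, held 70.2, 75.8 and 84.2 CPM in wildtype and 65.4, 66.1 and 62.3 in knockout libraries. Each knockout value was lower, with a log2 fold change of -0.25 ± 0.0887 (adjusted p = 0.384) that went to 0.00 with trended normalization. Irf9, which gives ISGF3 its DNA binding, held 46.4, 49.4 and 49.4 CPM against 49.7, 46.2 and 42.1, and the genotypes overlapped. Irf7, which amplifies interferon production, held 22.7, 24.2 and 22.7 CPM against 18.6, 20.4 and 21.5, slightly lower in each knockout library (log2 fold change -0.20 ± 0.145, adjusted p = 0.754; -0.11 with trended normalization). Irf1, an early transcription factor of the response, held 51.3, 45.7 and 39.1 CPM against 37.4, 42.0 and 38.6. Sp100, a nuclear body protein, had 3 peaks, all in its intron.

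The other antiviral GTPases lay on both sides of 0. Without Mx1 this group had 12 promoter peaks at 4 genes, with a median log2 fold change of 0.08, 7 above and 5 below 0, and no unadjusted p under 0.05. Gbp2 and Gbp3, guanylate-binding proteins that attack the vacuoles of pathogens, had log2 fold changes of 0.11 ± 0.253 and -0.25 ± 0.127 at their promoter peak with the most reads. Without wildtype library 3 these were 0.36 and -0.12, and the genotypes overlapped at both. Irgm1, a regulator of related GTPases that is also known for its part in keeping stem cells quiescent, held 9.74, 9.41 and 12.5 CPM against 10.7, 10.8 and 13.4, with overlap. It had the most peaks of any gene in the set, 13.

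The Ifit, Oas and other genes that act on viral RNA had 18 promoter peaks at 8 genes, with a median log2 fold change of -0.13, 5 above and 13 below 0. Isg20, an exonuclease, held 38.6, 37.4 and 37.4 CPM in wildtype and 29.1, 30.7 and 31.1 in knockout libraries (log2 fold change -0.32 ± 0.109, adjusted p = 0.356). Adar, an RNA editing enzyme, held 42.2, 34.3 and 41.5 CPM against 32.9, 32.6 and 30.4 (-0.30 ± 0.12, adjusted p = 0.464). Every knockout value was below every wildtype value at both, and with trended normalization the log2 fold changes were -0.16 and -0.13. Eif2ak2, the kinase PKR that stops translation, held 18.9, 17.3 and 29.5 CPM against 18.2, 16.4 and 16.9. Its log2 fold change of -0.35 ± 0.205 was -0.07 without wildtype library 3. Ifit2 held 13.6, 18.1 and 17.4 CPM against 16.5, 17.0 and 14.3, and Oas3, a synthetase of the RNase L activator, had a log2 fold change of -0.17 ± 0.226. The genotypes overlapped at these genes. Ifit1 counts as having distal peaks alone, because the table gives the peak next to its start to the neighbour Ifit1bl2. That peak held 33, 41 and 56 reads against 46, 64 and 67, a log2 fold change of 0.07 ± 0.289 (adjusted p = 0.971).

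The nucleic acid sensors had 8 promoter peaks, with a median log2 fold change of -0.04. Ifih1 (MDA5), which senses long double-stranded RNA, held 40.0, 37.6 and 44.0 CPM against 35.9, 29.3 and 36.1, lower in each knockout library, with a log2 fold change of -0.26 ± 0.123 (adjusted p = 0.559) that was -0.10 with trended normalization. Ddx58 (RIG-I), which senses RNA ends, held only 2.68 to 3.45 CPM in wildtype and 2.26 to 2.84 CPM in knockout libraries. Zbp1, a sensor of Z-form nucleic acid that can start cell death, held 16.9, 14.3 and 17.4 CPM against 15.2, 16.2 and 14.1. The membrane restriction factors had 4 promoter peaks with a median of 0.01. Bst2 held 21.7, 31.9 and 26.2 CPM against 30.2, 26.8 and 27.2, and Ifitm2, which blocks virus entry, 9.30, 9.07 and 8.50 against 11.5, 8.58 and 7.65. Neither separated the genotypes.

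Genes of ubiquitin, ISG15 and ADP-ribose modification had 9 promoter peaks with a median log2 fold change of 0.02. Trim25, a ubiquitin ligase that activates RIG-I, held 48.5, 48.4 and 46.1 CPM in wildtype and 36.3, 39.2 and 38.0 in knockout libraries. Every knockout library was lower, with a log2 fold change of -0.33 ± 0.0994 (adjusted p = 0.261) that was -0.14 with trended normalization. Usp18, which removes ISG15 and dampens the receptor, held 35.4, 26.4 and 41.9 CPM against 28.6, 30.6 and 27.1, with overlap. Dtx3l and Parp9, which act as a complex, overlap at their starts, and the table gives both promoter peaks there to Dtx3l. The peak over the Dtx3l start, in the 5′ UTR of both genes, held 12.9, 10.1 and 14.7 CPM against 11.8, 13.3 and 13.25 (log2 fold change 0.02 ± 0.203). The larger peak, 863 bp upstream of that start in an intron of Parp9, held 35.0, 35.1 and 35.4 CPM against 35.2, 38.9 and 37.2 (log2 fold change 0.08 ± 0.107, and 0.25 with trended normalization). The genotypes overlapped at both.

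Genes of nucleotide metabolism and other effectors had 8 promoter peaks with a median log2 fold change of -0.27, 2 above and 6 below 0. Samhd1, which lowers the pool of DNA building blocks and so starves retroviruses, had the smallest p among the promoters after Mx1. It held 43.9, 47.7 and 46.3 CPM in wildtype and 37.6, 35.6 and 31.7 in knockout libraries, with no overlap. The log2 fold change was -0.40 ± 0.109 (adjusted p = 0.211), and -0.22 with trended normalization. Cmpk2, a nucleotide kinase, held 42.7, 42.9 and 40.8 CPM against 36.2, 31.9 and 38.9. Its divergent neighbour Rsad2 held 28.0, 22.4 and 38.5 CPM against 22.4, 22.8 and 25.5, and its log2 fold change of -0.33 ± 0.184 was -0.09 without wildtype library 3. At their promoter peak with the most reads, Xaf1, a pro-apoptotic protein, and Ifi35 had log2 fold changes of 0.20 ± 0.218 and 0.21 ± 0.197. The Ifi35 value was 0.35 without wildtype library 3, and the remaining Ifi35 promoter peaks had -0.05 and -0.41.

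Without wildtype library 3, edgeR's test called 5 peaks of the set at an adjusted p under 0.05. Both Mx1 promoter peaks were higher, among 2 of 68 promoter peaks called higher (0.169% of all promoter peaks). The promoters of Samhd1 and Trim25 were lower, 2 of 68 (8.06% of all promoter peaks), with adjusted p = 0.0447 and 0.0468. The fifth was a distal Samhd1 peak, called lower, 1 of 164 (1.06% of all distal peaks), and 0 distal peaks of the set were called higher (0.321% of all). With that library left out and trended normalization, the Mx1 pair alone was called, and Samhd1 and Trim25 had log2 fold changes of -0.18 and -0.14. Wildtype library 3 was the highest of the 6 libraries at 25 of the 66 other promoter peaks and the lowest at 4. Of the 155 distal peaks outside Mx1 it was the lowest at 59 and the highest at 36.

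Distal peaks of the set showed no common shift. Over the 155 outside Mx1 the median log2 fold change was 0.01, against 0.06 over all distal peaks. Of all 164, 4 were higher at an unadjusted p under 0.05 (3.6% of all distal peaks) and 2 lower (2.7%). In 5 each knockout library was above each wildtype library (8.62% of all distal peaks) and in 3 each was below (4.14%). A peak 4158 bp upstream of Isg20 held 23, 16 and 32 reads in wildtype and 17, 8 and 15 in knockout libraries, a log2 fold change of -1.21 ± 0.405 (adjusted p = 0.334). A peak in an intron of Rsad2, 6784 bp past its start, held 25, 53 and 20 reads against 98, 67 and 96, a log2 fold change of 0.99 ± 0.364 (adjusted p = 0.41). In CPM the groups at this Rsad2 peak overlapped. A peak 26777 bp upstream of Parp14, an ADP-ribosyltransferase, held 7, 21 and 10 reads against 34, 30 and 46 (1.13 ± 0.433, adjusted p = 0.435). A peak 12125 bp past the start of Irgm1 held 54, 67 and 74 reads against 99, 150 and 144 (0.63 ± 0.258, adjusted p = 0.476). None of these passed the test.

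**Figure D4:**
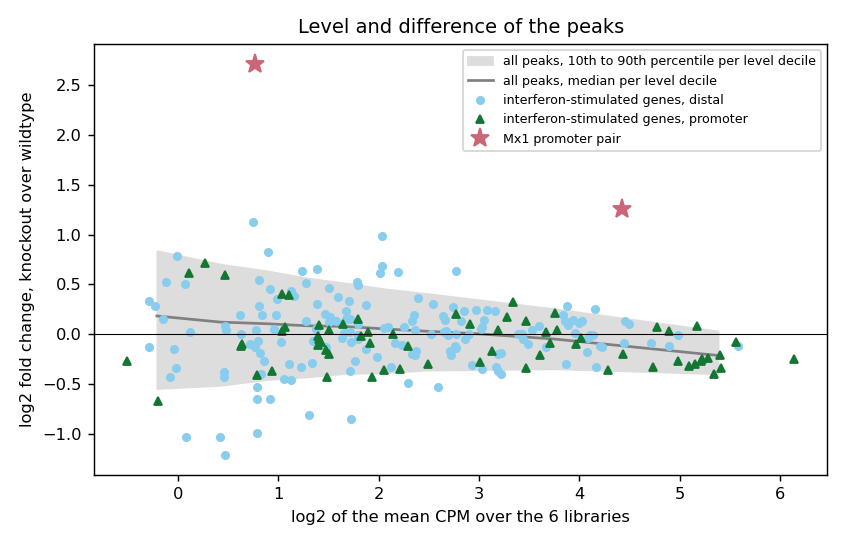
Log2 fold change, knockout over wildtype, against the log2 of the mean CPM over the 6 libraries for the 232 peaks; the grey band spans the 10th to 90th percentile of all peaks in each of 10 bins of level, and the line is their median. The Mx1 pair (stars) lies above the band, and most other peaks lie in it, where promoters with high levels sit slightly below 0 as all peaks of that level do.

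The rest of the interferon pathway, 110 further genes of which 97 had a peak, gave no peak at an adjusted p under 0.05 (0 of 129 promoter and 0 of 589 distal peaks, edgeR). Before adjustment, p was under 0.05 for 3 higher and 14 lower of the 129 promoter peaks (1.11% and 19.1% of all promoter peaks) and for 17 higher and 23 lower of the 589 distal peaks (3.6% and 2.7% of all distal peaks). The median log2 fold change was -0.05 for the promoter and 0.04 for the distal peaks. Tbk1, the kinase that activates Irf3 below the sensors, held 54.7, 45.9 and 57.6 CPM at its promoter in wildtype and 34.0, 35.8 and 37.3 in knockout libraries. No knockout value reached a wildtype value, and the log2 fold change was -0.56 ± 0.113 (adjusted p = 0.0774). It was -0.49 without wildtype library 3, where it passed (adjusted p = 0.0067), and -0.37 with trended normalization. In the fit without that library, 8.06% of all promoter peaks were called lower. The promoter of Ifnar1, a chain of the type I receptor, held 109.3, 96.7 and 91.6 CPM against 81.0, 76.1 and 70.4 (-0.39 ± 0.0888, adjusted p = 0.12). It was -0.44 without wildtype library 3, where it passed (adjusted p = 0.00337), and -0.11 with trended normalization. The promoters of Jak1, Jak2, Mavs, Ptpn2, Stat3 and Tdrd7 also passed without that library, all lower. With all libraries and trended normalization their log2 fold changes were, in that order, -0.03, -0.26, -0.08, 0.01, 0.11 and -0.19. Receptors and their kinases had a median of -0.31 over 10 promoter peaks, 3 of them lower at an unadjusted p under 0.05 (19.1% of all promoter peaks), and -0.10 with trended normalization. Interferon ligand genes had 3 promoter peaks at 2 of 9 genes, with a median of -0.52 and no unadjusted p under 0.05. These peaks held few reads. The strongest at Ifnb1 held 8, 11 and 11 reads in wildtype and 14, 9 and 10 in knockout libraries. The strongest at Ifng held 21, 16 and 54 against 22, 26 and 26, and its log2 fold change of -0.65 was -0.05 without wildtype library 3.

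Promoter reads at marker genes of 7 cell classes were summed in each library, and only those of plasmacytoid dendritic cells, the main makers of interferon, had ranges that did not overlap. These summed to between 87.9 and 104.8 CPM in wildtype and between 81.9 and 85.1 CPM in knockout libraries (p = 0.1 by an exact two-sided permutation test). That difference lay in Tcf4, with a mean of 57.5 CPM against 43.7, while Siglech held 7.22 against 8.21 and Bst2, a gene of the set, 30.98 against 31.3. Ccr9 and Cox6a2, the other 2 of the 5 markers, had no promoter peak. Of all single promoter peaks, 23.6% were lower in each knockout library than in each wildtype library. Granulocyte-monocyte markers summed to 44.7 to 78.7 CPM in wildtype and 72.8 to 82.8 CPM in knockout libraries. Among them Mpo had a mean of 7.52 against 14.3 CPM, S100a8 22.4 against 25.8 and Elane 6.59 against 6.68. Macrophage and dendritic cell markers summed to 41.8 to 95.2 CPM against 71.2 to 83.6, and erythroid markers to 27.7 to 58.6 against 23.8 to 45.2. B cell markers summed to 15.2 to 24.2 CPM against 10.6 to 16.0, and T and NK cell markers to 37.8 to 61.2 against 34.8 to 41.2. C1qa and Cd3e, which mark macrophages and T cells, had no promoter peak, and Hbb-bt, an erythroid globin gene, had no peak at all. Markers of stem and progenitor cells, the labelled type, summed to 198.8 to 232.9 CPM against 194.9 to 202.4, and Kit and Cd34 had promoter peaks. Wildtype library 3 was the lowest of the 6 libraries in the granulocyte-monocyte and the macrophage and dendritic sums and the highest in the erythroid, B cell, T and NK cell and plasmacytoid dendritic sums. The part of these marker differences in the values at Mx1 and at the other promoters of the set was not tested.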

How the data were processed

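Chromatin accessibility was measured in lineage-negative bone marrow cells of 6 mice. The authors deposited raw read counts per peak and library, with log2 fold changes, p-values and adjusted p-values of their own, per the file headers. The submitters' processing notes name mm10, FastQC, MACS2 2.1.1, Picard, Bowtie2 (listed as 1.2.2), Trimmomatic (as 0.40) and MultiQC (as 0.11.5), without saying what each did. The counting tool, any Tn5 offset shift and any removal of duplicates are not given here and can move the counts. Libraries were grouped by the genotype in the labels. A further 12 columns with values of single libraries (log2 CPM and called intervals) were left out.

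The members and gene lists, and the tests, were chosen with earlier results of these data known. Counts were tested with edgeR 4.0.16 in R 4.3.3 (quasi-likelihood, robust, TMM, one factor), p-values being adjusted by Benjamini-Hochberg over all 109859 peaks, at 0.05. The filter on low counts (filterByExpr) removed no peak, and all 232 peaks of the set were tested. CPM used TMM library sizes. A standard error is the log2 fold change over the root of F. Trended normalization used loess offsets (span 0.3, prior count 2). Single values per library were compared by exact two-sided permutation tests, with 0.1 as the smallest p. Alternatives were DESeq2 1.42.0, limma-voom (limma 3.58.1), other scalings and filters, a 3 kb promoter window and leaving out each library. The pipeline was tested on simulated data. The labels give separate mice, so libraries of a genotype are biological replicates, and counting error is covered by their spread. Named peaks were those of Mx1 and Mx2, the promoter peak with the most reads of each gene, the 5 promoter and the 5 distal peaks with the smallest p (1 per gene), and the 3 pathway peaks with the smallest p. One of these 3 is not reported here. The peak next to Ifit1 and the sequences of Isg15 and Ifit3 were chosen after their values were seen.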

Additional observations from a re-analysis of the deposited data

How the results depend on the processing

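The calls at Mx1 depended on the processing, and the median log2 fold change of the other promoter peaks changed sign with the scaling. The count of called peaks of the set was 0 in the main analysis, 2 with DESeq2 size factors, 1 with limma-voom, 2 with wildtype library 3 left out and trended normalization, and 0 to 5 with each library left out in turn (5 without wildtype library 3, 1 without wildtype library 2). The start-site peak of Mx1 passed with DESeq2 size factors (log2 fold change 1.24), limma-voom (1.25), wildtype library 3 left out with trended normalization (1.37, adjusted p = 3.1e-05), and without wildtype library 2 or wildtype library 3; over the libraries left out it ran from 1.20 to 1.32. The second peak passed with DESeq2 size factors (2.70, adjusted p = 0.0315), without wildtype library 3 (2.74, adjusted p = 0.00202) and with wildtype library 3 left out and trended normalization (2.59, adjusted p = 0.0299), and ran from 2.43 to 2.98 over the libraries left out (adjusted p from 0.00202 to 0.517). Its adjusted p was 0.391 with library size alone and 0.876 with trended normalization alone. Before adjustment, edgeR's p for this second peak was 4.5e-05 in the main analysis and 6.9e-05 with trended normalization (log2 fold change 2.575). The median of the other promoter peaks was 0.026 with library size alone, 0.042 with wildtype library 3 left out and trended normalization, and -0.17 to -0.037 with each library left out. The distal median was 0.14 with library size alone and -0.024 to 0.028 with each library left out. The difference in the Mx1 share of promoter reads, 2.42 percentage points, ran from 2.30 to 2.59 with each library left out and was 2.03 with a 3 kb promoter window. The cause was not tested. DESeq2's Wald test gave an adjusted p for 9 of the 232 peaks and for neither Mx1 promoter peak. Distal peaks with few reads have wide errors. No paired analysis was possible because the labels number the mice across both genotypes and no replicate number is shared.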
